A study of Mus musculus with 8 samples.

Results

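Odorant-binding proteins, lipocalins, BPIF proteins and mucins are the main protein products of the glands and secretory cells that coat the nasal epithelium. The group described here holds the genes whose symbol starts with Obp or Bpif, or is Lcn or Muc followed by digits with a trailing letter allowed, and it comprised 39 of the 19928 genes tested: 3 Obp, 11 Lcn, 14 Bpif and 11 Muc genes. The rule reads symbols and uses no measured value. Each array came from the olfactory mucosa of a mouse at postnatal day 3, on a mixed 129 x C57BL/6J background. The 4 conditional knockouts, called cKO below, were 123Cre:Lhx2(fl/fl). Of the 4 control arrays, controls 1 and 2 were Lhx2(fl/+) and controls 3 and 4 were 123Cre:Lhx2(fl/+), so that every control also carried a floxed Lhx2 allele. In the 123Cre transgene a promoter that becomes active in immature olfactory sensory neurons (OSNs) drives Cre, and in the study's reporter mice recombination marked neurons and was not seen in the ducts of Bowman's glands. The deletion was partial, and most OSNs kept Lhx2 mRNA in the study's tissue sections. Gland and mucus cells were thus not the cells in which Cre was meant to act.

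Some background helps in reading the values. Odorant-binding proteins are small secreted lipocalins with a barrel that holds hydrophobic ligands, and they are made by nasal and vomeronasal glands. The BPIF proteins share the fold of bactericidal/permeability-increasing protein and are secreted into the mucus of the nose, mouth and upper airway, where several act on bacteria or on surface tension. Mucins are heavily glycosylated proteins that either form the mucus gel after secretion (Muc2, Muc5b, Muc6, Muc19) or stay anchored in the apical membrane (Muc1, Muc4, Muc13, Muc15, Muc16). In olfactory mucosa these products come from Bowman's glands, from the lateral and septal nasal glands and from the adjoining respiratory epithelium, whereas OSNs are not known as a source.

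All values below are log2 signals as deposited, 1 per array, and a difference is the cKO mean minus the control mean of the same gene on that scale. Levels of different genes were not compared, because the probes differ. The targeted gene Lhx2 differed by -0.24 (adjusted p = 0.337 by limma), and by -0.12 without cKO 2. Omp, the marker protein of mature OSNs, differed by -0.97 (adjusted p = 0.00605 by limma). Of the 18 genes of the mature OSN list, chosen with earlier results known, 7 fell at an adjusted p under 0.01 by limma, against 2.07% of all genes. The list mean lay between 10.73 and 11.34 in cKO arrays and between 11.82 and 11.89 in controls. Markers of Bowman's glands were present in all arrays, with a mean over the 10 listed genes between 11.14 and 11.30 in cKO arrays and between 11.13 and 11.27 in controls. Each sample title starts with A or B, and no source says what the letter stands for. The titles of cKO 2, control 1 and control 2 start with B and the others with A.

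The regions in front of 4 of the genes are printed because they belong to 2 pairs of close relatives. Bpifb9a and Bpifb9b passed the test of correlation over the arrays given further on, and Obp2a and Obp2b did not. Each line gives 250 bases before and 50 after the start of the gene from RefSeq (GRCm38.p6, plus strand), with the motif TATAAA in capitals. The regions were chr2:25699824-25700123 for Obp2a, chr2:25736757-25737056 for Obp2b, chr2:154257629-154257928 for Bpifb9a and chr2:154306994-154307293 for Bpifb9b.
Obp2a: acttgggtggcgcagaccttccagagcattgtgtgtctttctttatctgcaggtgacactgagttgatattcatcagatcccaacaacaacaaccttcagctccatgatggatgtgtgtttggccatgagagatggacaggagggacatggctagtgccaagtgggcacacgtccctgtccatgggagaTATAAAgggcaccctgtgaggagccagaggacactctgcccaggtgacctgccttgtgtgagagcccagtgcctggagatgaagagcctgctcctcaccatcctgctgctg
Obp2b: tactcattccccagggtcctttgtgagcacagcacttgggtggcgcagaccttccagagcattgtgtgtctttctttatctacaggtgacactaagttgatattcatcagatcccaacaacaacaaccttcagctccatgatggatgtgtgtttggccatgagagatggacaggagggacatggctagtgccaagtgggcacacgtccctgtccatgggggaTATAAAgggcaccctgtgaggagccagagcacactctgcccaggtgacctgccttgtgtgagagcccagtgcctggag
Bpifb9a: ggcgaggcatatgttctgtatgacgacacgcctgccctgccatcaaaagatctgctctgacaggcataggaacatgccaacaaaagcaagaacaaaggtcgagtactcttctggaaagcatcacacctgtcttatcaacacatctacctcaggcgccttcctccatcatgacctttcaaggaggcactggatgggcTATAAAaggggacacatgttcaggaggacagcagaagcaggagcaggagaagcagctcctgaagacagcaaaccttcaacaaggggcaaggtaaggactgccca
Bpifb9b: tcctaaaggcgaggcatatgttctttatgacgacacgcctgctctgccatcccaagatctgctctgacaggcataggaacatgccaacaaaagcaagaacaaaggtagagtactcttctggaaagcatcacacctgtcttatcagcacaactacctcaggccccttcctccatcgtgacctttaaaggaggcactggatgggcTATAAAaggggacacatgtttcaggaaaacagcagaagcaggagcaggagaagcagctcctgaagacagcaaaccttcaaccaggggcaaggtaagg
The Obp2a and Obp2b windows were identical at 79.0% of aligned positions (263 bases), and the Bpifb9a and Bpifb9b windows at 90.6% (279 bases). Gaps counted as not identical, also at the ends, where the windows of a pair are shifted against each other. The percentages therefore do not rank the 2 pairs by how far their sequences differ. TATAAA, the core of a TATA box, began at position -61 from the start of Obp2a, at -28 for Obp2b, at -54 for Bpifb9a and at -47 for Bpifb9b. Windows were found for 36 of the 39 genes, and 12 of these (33.3%) held TATAAA on either strand (TTTATA on the other), against 13.6% of 32851 windows of all genes. TAATTA, a homeodomain core that reads the same on both strands, occurred in 3 of the 36 (8.33%) against 5.29% of all windows, and TGTTTAC, a forkhead core (GTAAACA on the other strand), in 1 (2.78%) against 3.65%. These are matches of letters, and binding was not measured.

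None of the 39 genes (0 genes) passed an adjusted p under 0.01 by limma in either direction. Over all genes the same threshold called 2.07% lower and 0.0602% higher. At an unadjusted p under 0.05 by limma, 2 members were lower (Muc13 and Obp2b, against 9.87% of all genes) and 2 were higher (Muc3 and Bpifb1, against 5.13%). A t-test on the deposited values, without the study's normalization, called 0 members after adjustment. It also called nearly none of all genes, so this count says little about the members. The 39 differences ran from -0.50 to 0.35 with a median of 0.02, and the median over all genes was 0.03. In 16 members the difference was below 0 and in 23 above. Over all 19928 genes it was below 0 in 7503 and above in 12425. By family, the median difference was -0.43 for the 3 Obp genes, -0.00037 for the 11 Lcn genes, 0.05 for the 14 Bpif genes and 0.12 for the 11 Muc genes.

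How much change these arrays could have missed differed from gene to gene. The 95% confidence interval reached between 0.09 and 1.32 to either side of the difference, with a median of 0.22, and it covered 0 in 35 of the 39 genes. For 26 genes the whole interval lay within 0.5 of 0, so that a change of signal of about 1.4-fold or more fell outside it. Many of these genes, among them Lcn4, Lcn10 and Muc6, had means below the lower quartile of all gene levels (7.52). At such levels background signal can make a difference too small, so a narrow interval there does not bound the change in mRNA. The widest intervals belonged to Obp1a, Obp2a, Bpifb5 and Bpifb3.

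**Figure D1:**
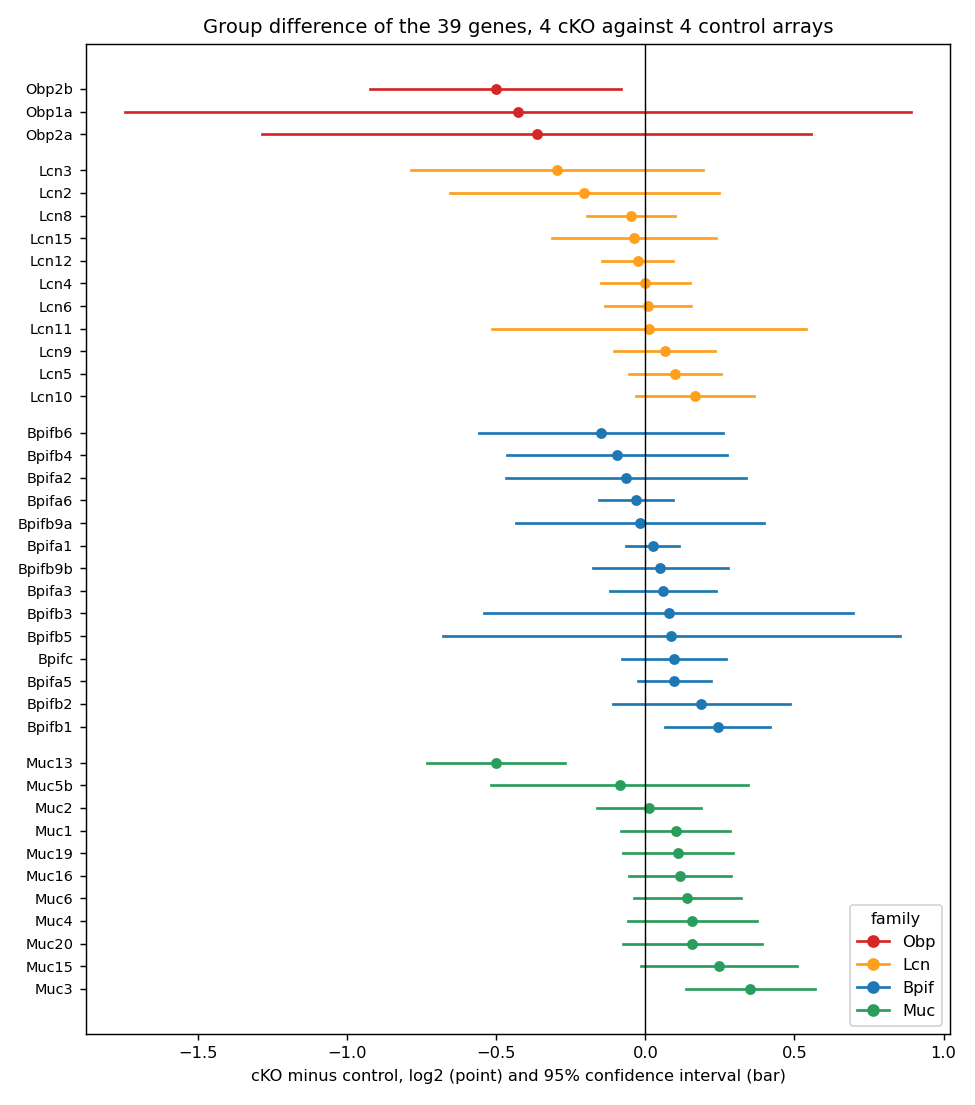
Each point is the cKO minus control log2 difference of 1 of the 39 genes, with its 95% confidence interval from limma as a bar (4 cKO and 4 control arrays), coloured by family. Intervals of 35 genes cross 0, and that of Obp1a is the widest, from -1.74 to 0.89.

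Of the 3 odorant-binding protein genes, all had a lower mean in cKO arrays, as did 7503 of all 19928 genes, and none passed the threshold. Obp2b read 10.23, 10.17, 10.31 and 10.51 in cKO arrays 1 to 4 and 11.09, 10.51, 11.23 and 10.40 in controls 1 to 4. Controls 1 and 3 stood above every cKO array, while controls 2 and 4 lay within the cKO range, so the groups overlapped. The difference was -0.50 (SE 0.19, 95% CI -0.92 to -0.08), or 70.6% of the control level, with an adjusted p of 0.224 by limma. It was -0.47 within letter A and -0.63 within letter B, where cKO 2 is the only cKO array.

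Its close relative Obp2a gave 11.84, 10.03, 10.84 and 11.69 in cKO arrays and 12.13, 11.44, 11.40 and 10.89 in controls. The lowest array was cKO 2 and the highest control 1, a 4.27-fold range, and cKO 1 and cKO 4 lay above 3 of the 4 controls. The difference of -0.36 (SE 0.41, 95% CI -1.29 to 0.56, adjusted p = 0.755 by limma) was smaller than the SD of 0.84 among cKO arrays. It was -0.0077 without cKO 2.

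Obp1a varied most of all members. It read 9.76, 9.53, 8.03 and 9.22 in cKO arrays and 11.29, 9.25, 9.0 and 8.70 in controls. Control 1 stood 1.53 above every other array and cKO 3 was the lowest, which makes a 9.58-fold range between single mice. The difference was -0.43 (SE 0.58, 95% CI -1.74 to 0.89, adjusted p = 0.804 by limma), and it turned to 0.15 without control 1.

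**Figure D2:**
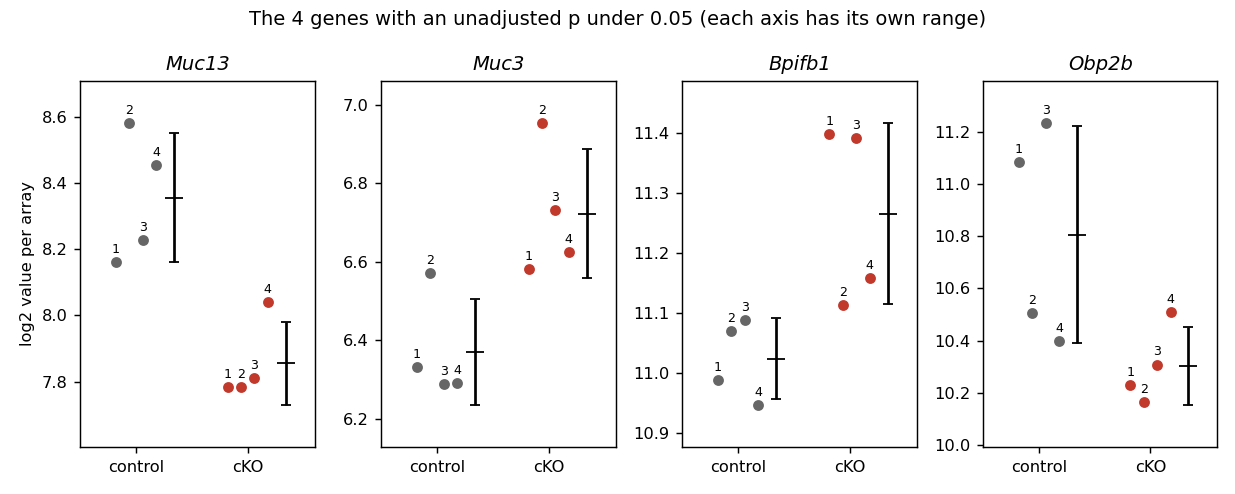
Log2 values of single arrays for Muc13, Muc3, Bpifb1 and Obp2b are shown as numbered points for controls (grey) and cKO mice (red), with the group mean and SD as a bar and a separate vertical range in each panel. All cKO points lie below all controls for Muc13 and above them for Muc3 and Bpifb1, while for Obp2b control 2 (10.51) and control 4 (10.40) lie among the cKO points.

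Among the 11 lipocalins outside the Obp genes, 0 had an unadjusted p under 0.05 by limma. Of all genes, 9.87% were lower and 5.13% higher at that p. The mean was below that of controls in 6 lipocalins and above it in 5. Lcn11, which follows Obp2b and Lcn3 directly in the gene order of chromosome 2, read 14.07, 13.27, 13.15 and 13.93 in cKO arrays and 14.04, 13.54, 13.46 and 13.34 in controls. The groups covered almost the same range, and the difference was 0.01 (SE 0.23, adjusted p = 0.989 by limma). Lcn3, a lipocalin of vomeronasal glands, read 9.88, 10.07, 10.27 and 10.54 in cKO arrays and 10.73, 9.97, 10.94 and 10.30 in controls. Controls 1 and 3 were again the highest, as for Obp2b, but the difference of -0.30 (SE 0.22, adjusted p = 0.604 by limma) lay within the spread.

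Lcn2, a siderophore-binding lipocalin of innate defence, read 10.86, 11.23, 10.96 and 10.80 in cKO arrays and 11.64, 11.36, 10.62 and 11.06 in controls (difference -0.20, SE 0.20, adjusted p = 0.717 by limma). Control 3 was its lowest array and control 1 its highest. The remaining lipocalins were dim, with the exception of Lcn12 (8.04 to 8.22). Lcn4, another gland lipocalin of the vomeronasal organ, lay between 4.62 and 4.88 on every array and differed by -0.00037 (SE 0.07), and Lcn10 differed by 0.17 (SE 0.09, adjusted p = 0.441 by limma). Both were under the lower quartile of all gene levels (7.52), where background signal can hide a change.

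Of the 14 Bpif genes, Bpifb1 alone had groups that did not overlap, which held for 3.18% of all genes in that direction. Bpifb1, the long airway protein of this family, read 11.40, 11.11, 11.39 and 11.16 in cKO arrays and 10.99, 11.07, 11.09 and 10.95 in controls. The lowest cKO array lay 0.03 above the highest control. The difference was 0.24 (SE 0.08, 95% CI 0.07 to 0.42), or 18.3% higher, with an adjusted p of 0.142 by limma. Within letter A it was 0.30, and within letter B, with cKO 2 as the only cKO array, 0.08.

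Bpifa1, a surface-active defence protein of the upper airway, was the steadiest member. Its values were 14.21, 14.23, 14.21 and 14.20 in cKO arrays and 14.17, 14.15, 14.24 and 14.19 in controls, a 1.06-fold range over all mice, with a difference of 0.02 (SE 0.04, 95% CI -0.07 to 0.11, adjusted p = 0.840 by limma). The highest value of any gene on any array was 14.76, so Bpifa1 read near the top of the scale, and whether its signal was saturated was not tested. The same limit holds for Bpifb9b, Bpifb9a and Lcn11, whose highest values were 14.50, 14.23 and 14.07.

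Bpifb9b read 14.24, 14.10, 14.37 and 14.50 in cKO arrays and 14.44, 14.14, 14.30 and 14.14 in controls, and differed by 0.05 (SE 0.10, adjusted p = 0.872 by limma). Its neighbour Bpifb9a read 13.85, 13.42, 14.07 and 14.23 in cKO arrays and 14.19, 13.63, 14.04 and 13.76 in controls (difference -0.02, SE 0.18, adjusted p = 0.978 by limma). On both, cKO 4 was the highest array and cKO 2 the lowest. They are closely related copies, and whether probes of one also read the other was not tested.

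Bpifb5, the next gene before them on chromosome 2, spanned a 2.79-fold range and read 12.41, 11.65, 12.82 and 13.00 in cKO arrays and 13.13, 12.10, 12.45 and 11.87 in controls. Control 1 was its highest array and cKO 2 its lowest, and the group difference was 0.09 (SE 0.34, adjusted p = 0.943 by limma).

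A different order of arrays was seen for Bpifb3, Bpifb4 and Bpifb6, which lie together in a run of 10 neighbouring Bpif genes. Bpifb3 read 11.99, 12.43, 11.67 and 11.65 in cKO arrays and 12.44, 12.01, 11.13 and 11.85 in controls (difference 0.08, SE 0.27, adjusted p = 0.934 by limma). Bpifb4 read 13.13, 13.57, 12.88 and 13.06 in cKO arrays and 13.53, 13.35, 12.94 and 13.21 in controls (difference -0.10, SE 0.16, adjusted p = 0.848 by limma). Bpifb6 read 13.02, 13.47, 12.72 and 12.85 in cKO arrays and 13.51, 13.26, 12.98 and 12.90 in controls (difference -0.15, SE 0.18, adjusted p = 0.774 by limma). In all of them cKO 2, control 1 and control 2 were the highest arrays, so that the groups overlapped fully. The other Bpif genes (Bpifa2, Bpifa3, Bpifa5, Bpifa6, Bpifb2 and Bpifc) had mean values between 5.22 and 7.66 and differences between -0.07 and 0.19.

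The mucin with the lowest p was Muc13, a membrane mucin of epithelial cells. It read 7.78, 7.78, 7.81 and 8.04 in cKO arrays and 8.16, 8.58, 8.23 and 8.45 in controls. All cKO arrays lay below all controls, as did those of 8.43% of all genes. The difference was -0.50 (SE 0.10, 95% CI -0.73 to -0.27), or 70.7% of the control level, with an adjusted p of 0.0233 by limma, which passed 0.05 (as did 5.54% of all genes, with 5.17% of all genes passing as lower) and missed 0.01. Over 20 settings the adjusted p of Muc13 by limma ran from 0.0189 to 0.146 and was under 0.05 in 13. The difference was -0.46 within letter A and -0.59 within letter B, where cKO 2 is the only cKO array. In RNA of whole mucosa, fewer cells of a type and less RNA per cell cannot be told apart. Beside it, 0 of the 11 respiratory ciliated cell markers passed by limma and 4 were lower at an unadjusted p under 0.05, against 9.87% of all genes. Among these 4 was Ccdc40, a protein needed to assemble motile cilia (-0.40, adjusted p = 0.0142 by limma). The list mean was 10.003 in cKO 2, 10.22 to 10.30 in the other cKO arrays and 10.24 to 10.36 in controls. The part of the ciliated cell markers in the value of Muc13, and that of the mature OSN genes given above, was not tested.

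Muc3, an intestinal type of membrane mucin, had a difference above 0. It read 6.58, 6.95, 6.73 and 6.63 in cKO arrays and 6.33, 6.57, 6.29 and 6.29 in controls, and the lowest cKO array lay 0.01 above the highest control. The difference was 0.35 (SE 0.10, 95% CI 0.14 to 0.57, adjusted p = 0.0769 by limma). Muc3 was dim, below the lower quartile of all gene levels, and its adjusted p ran from 0.0116 to 0.472 over 19 settings by limma.

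The gel-forming mucins did not separate the groups. Muc5b, the main gel-forming mucin of nasal glands, read 12.07, 12.40, 11.62 and 11.70 in cKO arrays and 12.36, 12.16, 11.86 and 11.76 in controls, where cKO 2 and control 1 were the highest arrays (difference -0.09, SE 0.19, adjusted p = 0.887 by limma). Muc2 read 12.73, 12.84, 12.64 and 12.46 in cKO arrays and 12.60, 12.67, 12.67 and 12.69 in controls (difference 0.01, SE 0.08, adjusted p = 0.969 by limma), and its controls lay within 0.09 of each other. Muc6 (0.14, adjusted p = 0.481 by limma) and Muc19 (0.11, adjusted p = 0.614 by limma) read near or below the lower quartile of all gene levels.

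The membrane mucins other than Muc13 had differences above 0 that did not pass. Muc15 differed by 0.25 (SE 0.12, adjusted p = 0.372 by limma), Muc4 by 0.16 (adjusted p = 0.517 by limma), Muc16 by 0.12 (adjusted p = 0.553 by limma) and Muc1 by 0.10 (adjusted p = 0.647 by limma). Of all 11 Muc genes, 9 had a difference above 0, as did 12425 of all 19928 genes.

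**Figure D3:**
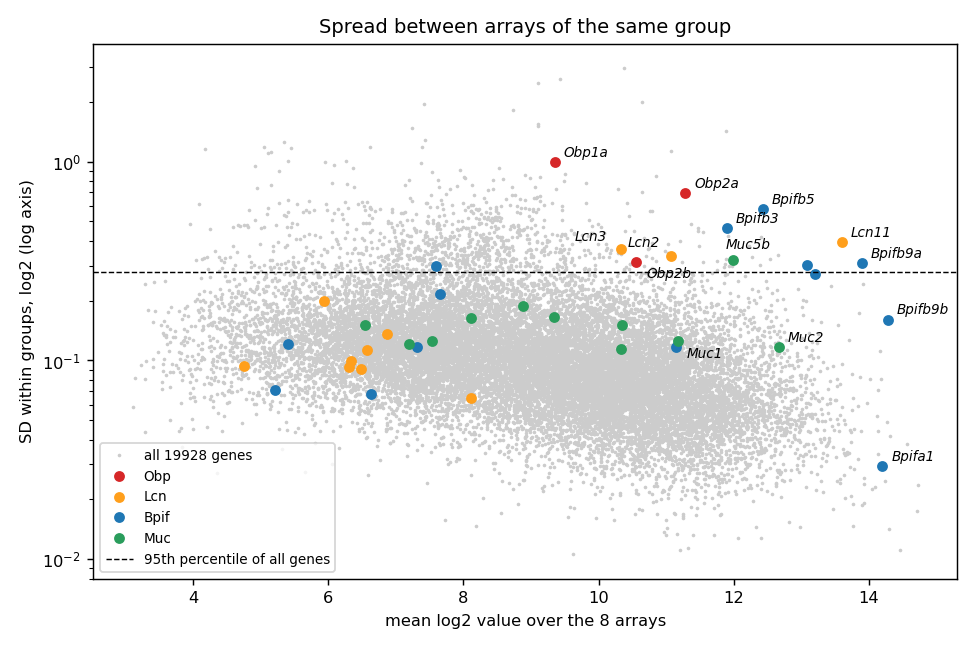
The SD of each gene within the groups (log2, log axis) is plotted against its mean log2 value over the 8 arrays, with all 19928 genes in grey, the members coloured by family and the 95th percentile of all genes (0.28) as a dashed line. Of the 39 members 12 lie above the line, Obp1a highest at 0.99, while Bpifa1 lies near the bottom at 0.03.

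Many of these genes had a wide spread between single mice. The residual SD of a gene is the spread of its arrays around the mean of their own group, so a group difference does not add to it. It exceeded the 95th percentile of all genes (0.28) in 12 of the 39 members (30.8%): Obp1a, Obp2a, Obp2b, Lcn2, Lcn3, Lcn11, Bpifa2, Bpifb3, Bpifb5, Bpifb6, Bpifb9a and Muc5b. The median was 0.15 for members and 0.10 for all genes. Most of this lay in genes with a strong signal. Of the 20 members at or above the median gene level (9.15), 11 exceeded that percentile, against 1.75% of all genes at or above that level, and their median residual SD was 0.31 against 0.08. Of the 13 members below the lower quartile, 0 exceeded it. Of the other gene lists, the percentile was exceeded by 4 of 11 serous gland genes and 3 of 8 vomeronasal neuron genes. It was also exceeded by 4 of 18 mature OSN, 2 of 9 respiratory secretory and 1 of 10 Bowman's gland genes. The same held for 1 of 6 horizontal basal cell genes, 1 of 2 blood genes and 4 of 4 sex-linked genes. It was exceeded by 0 of 10 sustentacular, 0 of 11 respiratory ciliated and 0 of 12 immature OSN genes. The count was also 0 of 9 cartilage, bone and muscle genes and 0 of 9 macrophage genes. Wide spread was thus seen outside gland products too, but only in some lists.

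The spread was not that of 1 array alone. For the 20 brighter members, control 1 was the highest array in 6 and the lowest in 2, cKO 2 was the highest in 6 and the lowest in 5, and cKO 3 was the lowest in 5. The root mean square deviation from the mean of the 8 arrays was largest in control 1 (0.59), followed by cKO 2 (0.43) and cKO 3 (0.38), and smallest in control 2 (0.18). By sex-linked mRNAs control 1, cKO 2 and control 4 came from females, and control 4 deviated by 0.24. With sex as block, 12 members had a residual SD above the 95th percentile, as without it. Leaving out each array in turn, between 9 and 13 members had a residual SD above the 95th percentile.

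**Figure D4:**
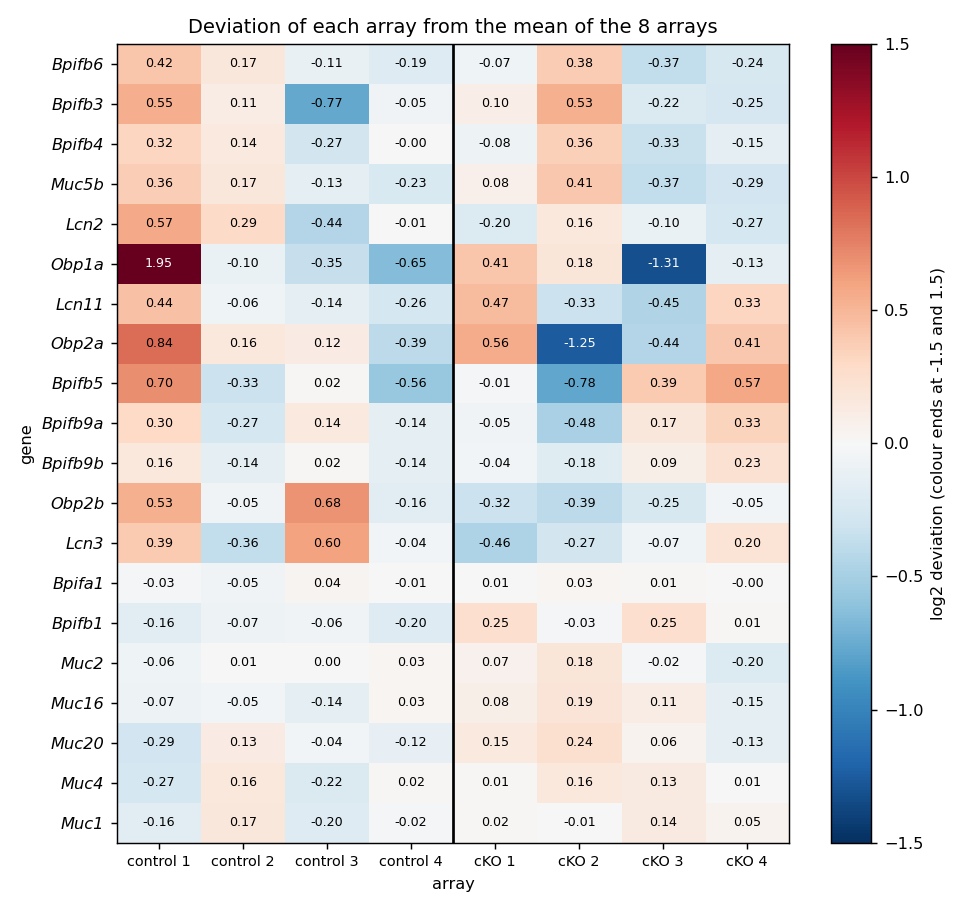
Each cell gives the deviation of 1 array from the mean of the 8 arrays (log2, red above and blue below) for the 20 members at or above the median gene level, with the controls left of the line and the cKO arrays right of it. In Bpifb6, Bpifb3, Bpifb4, Muc5b and Lcn2 the arrays cKO 2, control 1 and control 2 are highest, and in Bpifb5, Bpifb9a and Bpifb9b cKO 2 is lowest.

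Beside these deviations, the marker lists of other cells gave the following. The serous gland list (11 genes) was highest in control 1 at 8.29, against 7.63 to 8.06 in the other arrays. Vomeronasal neuron markers (8 genes) were highest in control 4 (9.79) and cKO 4 (9.63), against 8.96 to 9.19 elsewhere. Lcn4 was likewise highest in control 4 (4.88) and cKO 4 (4.82), within a range of 0.26 over all arrays at a dim level, whereas Obp1a and Obp2a were highest in control 1 and Obp2b in control 3. In cKO 2, which was the lowest array for Obp2a, Bpifb5, Bpifb9a and Bpifb9b, the lists of mature OSNs (10.73 against 11.22 to 11.34 in the other cKO arrays), immature OSNs (12.01 against 12.18 to 12.21) and respiratory ciliated cells (10.003 against 10.22 to 10.30) were lowest as well. The 2 blood genes had means between 9.43 and 10.42, highest in controls 2 and 1. Respiratory secretory markers stayed between 8.21 and 8.39, Bowman's gland markers between 11.13 and 11.30 and sustentacular markers between 12.05 and 12.27. In each of these lists cKO 2 was the highest array, by a narrow margin. The part of dissection or of any cell type in the deviations was not tested.

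Several brighter members varied together over the mice. Of the 190 pairs among the 20 brighter members, 4 passed an adjusted p under 0.05 in an exact permutation test of Pearson's r over 40320 pairings, each by Spearman's rho too, and 32 had an unadjusted p under 0.05. Bpifb6 and Muc5b gave r = 0.98 (exact permutation p = 4.96e-05, adjusted p = 0.00942) and rho = 0.98 (exact permutation p = 0.000397, adjusted p = 0.0377). Without the 2 farthest arrays r was 0.94. Here and below, these are the 2 arrays farthest from the median of the pair's alphabetically first gene. Extreme arrays of the second gene can stay in, so these values are not fully comparable between pairs. Bpifb6 and Muc5b lie on chromosomes 2 and 7, and their order of arrays was nearly the same.

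The other pairs that passed were those among Bpifb5, Bpifb9a and Bpifb9b, which are neighbours on chromosome 2. Bpifb5 correlated with Bpifb9a at r = 0.94 (exact permutation p = 0.000546, adjusted p = 0.0271) and rho = 0.95 (exact permutation p = 0.00114, adjusted p = 0.0434), and without the 2 farthest arrays r was 0.89. With Bpifb9b it gave r = 0.96 (exact permutation p = 0.000546, adjusted p = 0.0271) and rho = 0.95 (exact permutation p = 0.00114, adjusted p = 0.0434), and r stayed at 0.96 without the 2 farthest arrays. Bpifb9a and Bpifb9b gave r = 0.95 (exact permutation p = 0.00057, adjusted p = 0.0271) and rho = 1.0 (exact permutation p = 4.96e-05, adjusted p = 0.00942), and 0.98 without the 2 farthest arrays. After each group was centred on its own mean, these 4 correlations lay between 0.95 and 0.98.

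Membership of 1 family or chromosome region did not go with correlation throughout. Bpifb5 and Bpifb6 gave r = -0.22 (exact permutation p = 0.592, adjusted p = 0.827) and rho = -0.17 (exact permutation p = 0.703, adjusted p = 0.897), and -0.57 without the 2 farthest arrays. Obp2a and Obp2b, whose start regions printed above are close copies, gave r = 0.53 (exact permutation p = 0.178, adjusted p = 0.556) and rho = 0.48 (exact permutation p = 0.243, adjusted p = 0.608), and 0.07 without the 2 farthest arrays. The nearest partner of Obp2a was Lcn11, at r = 0.85 (exact permutation p = 0.00605, adjusted p = 0.105) and rho = 0.95 (exact permutation p = 0.00114, adjusted p = 0.0434), and 0.74 without the 2 farthest arrays. Among positive values, that of Obp2b was Lcn3, at r = 0.87 (exact permutation p = 0.00427, adjusted p = 0.0901) and rho = 0.81 (exact permutation p = 0.0218, adjusted p = 0.218), which rests on the 2 farthest arrays, since r was 0.48 without them. With Muc4, Obp2b gave r = -0.89 (exact permutation p = 0.0138, adjusted p = 0.138), and -0.22 without the 2 farthest arrays. With Muc16 it gave r = -0.76 (exact permutation p = 0.0252, adjusted p = 0.202), and -0.91 without the 2 farthest arrays. Those were the farthest of Muc16, so the highest arrays of Obp2b stayed in. Of the negative values, that of Bpifb9b and Muc2 had the smallest p, at r = -0.84 (exact permutation p = 0.00198, adjusted p = 0.0628) and rho = -0.90 (exact permutation p = 0.00456, adjusted p = 0.0867), and -0.69 without the 2 farthest arrays.

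**Figure D5:**
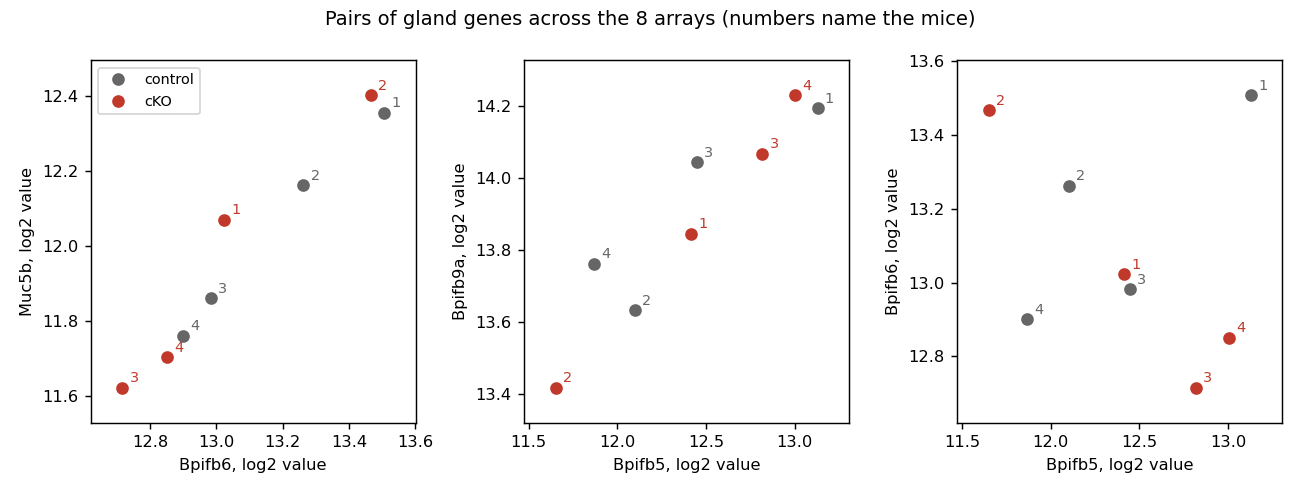
Log2 values of 2 genes are plotted against each other for the 8 mice, with numbered points for controls (grey) and cKO mice (red). Bpifb6 and Muc5b lie close to a line (r = 0.98), as do Bpifb5 and Bpifb9a (r = 0.94), whereas Bpifb5 and Bpifb6 do not (r = -0.22).

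The letter of the sample title moved with some of these genes. In 5 members (Bpifb3, Bpifb4, Bpifb6, Lcn2 and Muc5b) all 3 arrays of letter B lay above all 5 arrays of letter A, which held for 2.98% of all genes, and in 0 members below. With the group in the fit, arrays of letter B were higher by 0.51 (SE 0.09) for Bpifb6, 0.51 (SE 0.11) for Muc5b, 0.53 (SE 0.12) for Lcn2, 0.44 (SE 0.09) for Bpifb4 and 0.70 (SE 0.18) for Bpifb3. None of these passed an adjusted p under 0.01 by limma, where the smallest over the members was 0.365 and 0 of all genes passed, while 10 members were higher in letter B at an unadjusted p under 0.05, against 5.67% of all genes, and 0 were lower, against 3.06%. With each letter centred on its own mean, the correlation of Bpifb6 and Muc5b was 0.91, and those among Bpifb5, Bpifb9a and Bpifb9b lay between 0.95 and 0.97. Letter A has 5 arrays and letter B 3, too few for a correlation within either. The controls of letter B are the Lhx2(fl/+) mice, so in controls the effects of letter and of genotype cannot be told apart.

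The rest of the secretory apparatus was compared in the same fit. Of 37 genes tested on a list of other secreted gland products and of enzymes and factors of secretion, 0 passed an adjusted p under 0.01 by limma in either direction and 1 had an unadjusted p under 0.05, the mucin glycosyltransferase gene Gcnt4 (0.15, adjusted p = 0.281 by limma). Of all genes, 2.07% passed as lower and 0.0602% as higher. At the unadjusted p, 9.87% of all genes were lower and 5.13% higher. For these 37 genes, the values of single arrays were as follows. Their mean lay between 8.94 and 9.04 in cKO arrays and between 8.87 and 9.12 in controls, and 7 had a residual SD above the 95th percentile. Odam, a secreted protein of epithelia and serous glands, read 9.17, 7.76, 9.32 and 9.97 in cKO arrays and 9.86, 8.40, 8.76 and 8.10 in controls, with cKO 2 the lowest, as for Bpifb5. Mup5, a lipocalin of the major urinary protein family, read 7.02, 5.72, 5.92 and 6.65 in cKO arrays and 8.01, 6.29, 5.31 and 5.95 in controls, with control 1 the highest, as for Obp1a. Of the 10 Bowman's gland markers 0 passed by limma and 1 had an unadjusted p under 0.05, against the shares of all genes given above. This was Ascl3, a transcription factor of gland duct and microvillous cells, at 0.20 (adjusted p = 0.260 by limma). Dmbt1, a mucosal scavenger protein on the Bowman's gland list, differed by -0.39 (adjusted p = 0.630 by limma).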

How the data were processed

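Olfactory mucosa RNA of 8 mice was measured on Mouse Gene 1.0 ST arrays (Affymetrix), with a separate array for each mouse. The authors deposited log2 values of 28312 transcript clusters, made with Affymetrix Expression Console per the submitters' processing notes. Not given in the sources used here were its version, background correction, summarization and genome build. Any background signal left in such values would make differences of dim genes too small, which was not tested. Precision is limited by the number of arrays.

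Clusters were named from the platform annotation (1 symbol for 21759, several for 1605, none for 4948), and 21668 were found by Entrez identifier in the RefSeq genes of GRCm38.p6, with 0 symbols changed. Clusters with several symbols were left out, and the cluster with the highest mean was kept for each of 994 genes with several, among the members only Muc19, leaving 19928 genes. Of the protein-coding genes of these families in the gene table, Obp1b and Muc3a were not analysed here. Muc5ac, whose symbol ends in 2 letters, is no member by the rule and is described separately.

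The cKO minus control difference was tested with limma 3.58.1 in R 4.3.3 (lmFit and eBayes, two-sided, 4 against 4 arrays, Benjamini-Hochberg over all genes, threshold 0.01), after the procedure had been tested on simulated data. Replicate numbers follow accession order and pair nothing. Per the study's methods, control mice came from the same litters as mutants, and the labels link no array to a litter. The gene families, lists and tests were chosen with earlier results of these data known, although the rule for members reads symbols only. The correlations over pairs (exact permutation test, scipy 1.17.1), the comparison of title letters and the fits within letters were added after the data were seen. Named were members past the threshold, the 8 with the smallest p, the 10 with the highest mean, the 10 with the largest residual SD and a fixed list of well-known members, and from each other list the genes past the threshold, the 2 with the smallest p and the 2 with the largest residual SD, of which a few are printed. Members outside this rule are named only in counts and ranges. As alternatives, the test was replaced by a t-test, the kind of test the study used, or by eBayes with trend and robust, and the threshold by 0.05. This t-test assumed equal variances and was run on the deposited values with Benjamini-Hochberg adjustment. The study's normalization to mature OSN mRNAs and its stepwise false discovery rate procedure were not repeated. Values were quantile normalized or centred on non-chemoreceptor genes, dim genes were removed, clusters of a gene were averaged, arrays were weighted, letter or sex was blocked, single control genotypes were used and each array was left out. Start regions were aligned globally in pairs, and identity is given over aligned positions, gaps included.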

Additional observations from a re-analysis of the deposited data

Results flagged for a closer look

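In each group of 4 arrays, the highest and the lowest array of each of the 39 genes was set against the others by Dixon's test, over 78 groups of arrays. It singled out 2, where chance gives about 1 in 20 groups. For Muc13, cKO 4 read 8.04 and the other cKO arrays 7.78, 7.78 and 7.81, a gap of 0.887 of the group's whole range, and cKO 4 still lay below every control. For Muc3, control 2 read 6.57 and the other controls 6.33, 6.29 and 6.29, a gap of 0.847 of the range.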

How the results depend on the processing

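No member passed an adjusted p under 0.01 by limma under any of the 21 alternatives, and the smallest adjusted p of a member was 0.0116, that of Muc3. At an adjusted p under 0.05 the number of members lower was 1 (Muc13, -0.50). All genes past the threshold numbered 424 and became 1 with the methods' t-test, 1104 at an adjusted p under 0.05, 0 with only the Lhx2(fl/+) or only the 123Cre:Lhx2(fl/+) controls, and 30 to 676 with each array left out (30 without control 1, 676 without cKO 2). The members' median difference of 0.02 became 0.12 with only the 123Cre:Lhx2(fl/+) controls. Of 570 differences of the 27 named members (562 under these alternatives and 8 within title letters), 49 changed sign, in 13 genes, of which Obp1a had the largest difference over the 8 arrays, and 0 of the reversed values passed the threshold. Quantile normalization gave -0.0060 for Bpifa1, -0.0038 for Lcn11 and -0.0088 for Muc2, and centring on genes that encode no chemoreceptor -0.0055 for Lcn11 and -0.0066 for Muc2. Array weights gave -0.029 for Bpifb3, 0.034 for Bpifb9a and -0.0074 for Muc2. The title letter as fixed block gave 0.016 for Bpifb4 and 0.043 for Muc5b, and as random block 0.00067 for Lcn4. Sex as block gave -0.0078 for Lcn11 and 0.025 for Lcn4. With only the Lhx2(fl/+) controls, the differences were -0.29 for Bpifb3, -0.14 for Bpifb5, -0.18 for Lcn11 and 0.033 for Lcn4. With only the 123Cre:Lhx2(fl/+) controls they were -0.0033 for Bpifa1, 0.089 for Bpifb4, 0.072 for Bpifb6, 0.12 for Lcn2, -0.0097 for Muc2, 0.14 for Muc5b and 0.28 for Obp1a. Leaving out each array in turn gave ranges of -0.16 to 0.27 for Bpifb3, -0.091 to 0.36 for Bpifb5, -0.13 to 0.14 for Bpifb9a, -0.017 to 0.12 for Bpifb9b, -0.14 to 0.16 for Lcn11, -0.043 to 0.044 for Lcn4, -0.046 to 0.081 for Muc2, -0.24 to 0.024 for Muc5b and -0.71 to 0.15 for Obp1a. Others came close to 0 without changing sign, with -0.61 to -0.0077 for Obp2a, -0.39 to -0.048 for Lcn2, -0.30 to -0.035 for Bpifb6 and -0.23 to -0.0014 for Bpifb4. The cause of these reversals was not tested. No paired analysis was possible because the labels carry no replicate numbers that the groups share and link no array to a litter. Dim genes, close to background, limit what a difference there can show.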

Other observations

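Muc5ac, the other gel-forming mucin of the airway surface and no member by the naming rule, varied more between arrays than any of the 39 genes. It read 11.41, 11.96, 10.49 and 11.29 in cKO arrays 1 to 4 and 8.68, 11.24, 11.84 and 11.68 in controls 1 to 4. Control 1, in which Obp1a was highest, was its lowest array, and the other arrays lay between 10.49 and 11.96. The group difference was 0.43 (SE 0.66, 95% CI -1.07 to 1.92, adjusted p = 0.830 by limma), and the residual SD of 1.13 compares with 0.99 for Obp1a.

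Other secreted products on the lists varied in ways of their own. Pip, prolactin-induced protein of serous glands, read highest in control 1 (6.77), followed by cKO 1 (6.15), with the other arrays between 5.23 and 5.65. Tff2, a trefoil peptide that accompanies mucins, was lowest in control 1 (9.58) and lay between 9.94 and 10.55 in the other arrays. Pigr, which carries antibodies across secretory epithelium, lay between 8.08 and 9.16, highest in control 1 and lowest in control 4. None of these differed between the groups at an unadjusted p under 0.05 by limma (0 of 3 genes, against 9.87% of all genes lower and 5.13% higher).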
